A study of Mus musculus with 4 samples.

Results

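Nascent transcription of 10 antioxidant genes, most of them targets of the transcription factor NRF2, was examined in mouse livers with and without the histone deacetylase Hdac3. The genes were Nfe2l2, which encodes NRF2 itself, the superoxide dismutases Sod1, Sod2 and Sod3, catalase (Cat), and Gclc, Txnrd1, Srxn1, Nqo1 and Hmox1. They were taken by symbol from a table of 20642 gene symbols. Where a symbol has several transcripts, the row was to be chosen by its promoter-proximal signal, averaged over all 4 libraries, but each of the 10 symbols had a single row, so these values decided nothing. The list of genes itself was drawn up with results of these libraries in view. Of the 10 genes, 9 were transcriptionally active, among 12705 active genes in all. To be active, a gene had to have promoter-proximal reads and more than 4 normalized reads per kb in its body, on average over the libraries. The study applied the same 4 reads per kb after scaling the total read count to a fixed, smaller size. The cutoff on the deposited values is therefore looser than that of the study, and the active genes here are not the study's list. With more than 10 per kb required, 11176 genes were active. Nqo1, at 6.60 per kb in WT and 6.22 in KO, was then not among them.

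Livers of C57BL/6 mice were taken on day 14, and PRO-seq, which maps engaged RNA polymerases by letting them extend their transcripts with biotinylated nucleotides in isolated nuclei, was run on the same number of nuclei for each library. The WT group (Alb-Cre+ Hdac3 +/+) and the KO group (Alb-Cre+ Hdac3 fl/- or fl/fl) had 2 libraries each, and both carried Cre driven by the albumin promoter, which is active in hepatocytes. Cells in which that promoter is silent keep their floxed alleles, and the - allele is null in every cell. Each library came from a separate pool of nuclei from several mice, so the spread within a group is that between pools.

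NRF2 is held at a low level by KEAP1, which marks it for degradation. Oxidants and electrophiles release it from KEAP1, and it then binds antioxidant response elements together with a small MAF protein and raises enzymes that make glutathione, reduce thioredoxin, detoxify quinones and break down heme. Superoxide dismutases turn superoxide into hydrogen peroxide, and catalase, which is abundant in the peroxisomes of hepatocytes, turns hydrogen peroxide into water and oxygen.

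For each gene the deposited table gives reads in 2 regions. The promoter-proximal window is the stretch of 50 bp with the most reads within 500 bp of the transcription start, where polymerase pauses, and the gene body runs from 1000 bp downstream of the start to the end of the gene. Values are normalized reads, that is reads multiplied by 1 factor per library. The libraries held 16628518 to 26190040 reads on genes, and the share of them in promoter-proximal windows was 9.38% and 10.3% in WT and 13.6% and 17% in KO. The median active gene was 0.56 higher in KO on the log2 scale in the promoter-proximal window and 0.09 lower in the gene body, and changes are also given relative to these medians. Over all active genes 3282 were called up and 280 down in the window, and 634 and 942 when the window reads were scaled by median of ratios within their own region. A gene was called changed at an adjusted p under 0.05 by limma and a log2 fold change beyond 0.6 in either direction, on log2(normalized reads + 1). With 2 libraries against 2, an exact two-sided permutation test of a single gene cannot go below p = 0.333, so every p given is, unless another tool is named, from the limma fit across all active genes with Benjamini-Hochberg adjustment. Reads on Hdac3 itself did not show the deletion: its gene body held 665 and 648 normalized reads in WT and 609 and 582 in KO (log2 fold change -0.14, SE 0.13, adjusted p = 0.413). The region counted runs over the whole gene past its first 1000 bp and is not limited to the floxed part, so it does not check the labels. The hepatocyte marker genes were read in every library, and 5 of 8 fell in the gene body. In bulk nuclei, fewer cells of a type and less nascent RNA per cell cannot be told apart.

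NRF2 acts through antioxidant response elements, so the letters before the starts were searched for their core and for the AP-1 type site. The windows with a match are shown here, along with that of the first Txnrd1 start, to which the deposited values belong. The 250 bases before a start were taken from RefSeq (build GRCm38.p6), where 7 of the 10 genes had an entry, with 9 windows among them. Sod3, Gclc and Hmox1 had none. The core of the antioxidant response element, TGACNNNGC, and the AP-1 type site, TGANTCA, were searched on both strands, and the 2 motifs can share letters. The core was present in 10.2% of 32851 windows in the whole table and in 3 of the 9 windows here, and the AP-1 type site in 6.75% of all windows and in 1 of the 9. Sequences run 5′ to 3′ on the strand of the gene up to the base before the start, and capitals mark the matches.
Nfe2l2, chr2:75704664-75704913, minus strand: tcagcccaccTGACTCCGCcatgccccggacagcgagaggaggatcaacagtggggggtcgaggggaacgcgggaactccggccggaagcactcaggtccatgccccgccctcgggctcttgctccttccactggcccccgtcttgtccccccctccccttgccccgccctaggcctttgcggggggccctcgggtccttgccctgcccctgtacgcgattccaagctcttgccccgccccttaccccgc
Sod1, chr16:90220512-90220761, plus strand: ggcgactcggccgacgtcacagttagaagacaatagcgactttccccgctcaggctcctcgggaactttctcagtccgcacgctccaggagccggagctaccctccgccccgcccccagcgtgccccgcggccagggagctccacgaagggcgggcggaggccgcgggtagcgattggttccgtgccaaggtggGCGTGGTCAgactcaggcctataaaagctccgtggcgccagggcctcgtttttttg
Srxn1, chr2:152105274-152105523, plus strand: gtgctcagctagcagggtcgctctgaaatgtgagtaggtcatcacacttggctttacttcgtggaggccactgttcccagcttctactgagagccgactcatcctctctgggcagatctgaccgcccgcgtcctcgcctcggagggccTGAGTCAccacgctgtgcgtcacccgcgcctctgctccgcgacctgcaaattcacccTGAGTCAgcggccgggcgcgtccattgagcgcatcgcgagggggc
Txnrd1, first start, chr10:82833701-82833950, plus strand: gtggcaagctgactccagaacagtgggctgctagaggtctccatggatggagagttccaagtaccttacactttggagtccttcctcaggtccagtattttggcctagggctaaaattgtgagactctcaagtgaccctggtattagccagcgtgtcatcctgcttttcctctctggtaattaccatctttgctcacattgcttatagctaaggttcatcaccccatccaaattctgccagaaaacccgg
Txnrd1, downstream start, chr10:82858956-82859205, plus strand: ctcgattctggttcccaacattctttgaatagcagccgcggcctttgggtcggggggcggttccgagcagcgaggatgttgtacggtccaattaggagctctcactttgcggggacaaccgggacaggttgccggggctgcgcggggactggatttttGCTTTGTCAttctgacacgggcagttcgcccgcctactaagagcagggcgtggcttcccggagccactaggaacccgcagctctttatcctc
In Nfe2l2 the core lay 240 to 232 bases before the start. The match in Sod1 was on the opposite strand, 56 to 48 bases before its start, and that of the downstream Txnrd1 start, also on the opposite strand, was 92 to 84 bases before it. Srxn1 held the AP-1 type site at 102 to 96 and at 45 to 39 bases before the start. With the gc that follows it, the site nearer the start differs from the searched core only in a G for its C. That form was not searched. The windows of Cat, Sod2 and Nqo1 and that of the most downstream Txnrd1 start are not shown and held neither motif. A match is only a stretch of letters, and windows without one say nothing of binding elsewhere.

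In the promoter-proximal window, Hmox1, Sod1, Nfe2l2 and Sod3 rose in KO livers and no gene of the set fell. These were 4 of the 9 genes tested, Sod3 among them although it is described below without a test, against 25.8% of all active genes called up. The count of genes called down was 0 by limma, by edgeR, by DESeq2 and at an unadjusted p under 0.05, against 2.2% of active genes. Both KO libraries lay above both WT libraries for 6 of the 9 genes, and 61.9% of active genes did the same. Both lay below for 0 of the 9, beside 6.72% of active genes. The median change of the 9 genes was 0.47 on the log2 scale, beside the 0.56 of all active genes. Scaling within the region left 2 genes called up, Hmox1 and Sod3. Without WT replicate 1, WT replicate 2 or KO replicate 2 fewer of the 9 were called up, and so were fewer of all active genes. Without the filter on activity the count called up was 0 of 10, as it was in the whole table. There 3790 genes were up at an unadjusted p under 0.05 with the same fold threshold. Of the gene bodies, only that of Sod3 was called, 1 of 9 genes, beside 10.4% of active genes called up. Sod3 was already known for its large promoter-proximal difference when the set was drawn up, so its calls in either region carry no weight against these shares. None of the 9 was called down in the gene body by limma, edgeR or DESeq2, where limma called 11.4% of active genes down. With no fold threshold, 2 of the 9 (Sod2 and Cat) were lower and 3 (Sod3, Nfe2l2 and Hmox1) higher at an adjusted p under 0.05. Of all 12705 active genes, 2807 were lower and 2161 higher by the same rule. In this main fit, Sod2, Cat, Nfe2l2 and Hmox1 thus missed only the fold threshold. With scaling within the region, Cat also missed the adjusted p (0.0821 by median of ratios and 0.0786 by TMM). Those of Sod2 (0.0331 and 0.0322), Nfe2l2 and Hmox1 stayed under 0.05. The median gene body change of the 9 genes was 0.18, with KO above WT in 3 genes and below in 2, beside 27.6% and 42.8% of active genes.

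**Figure D1:**
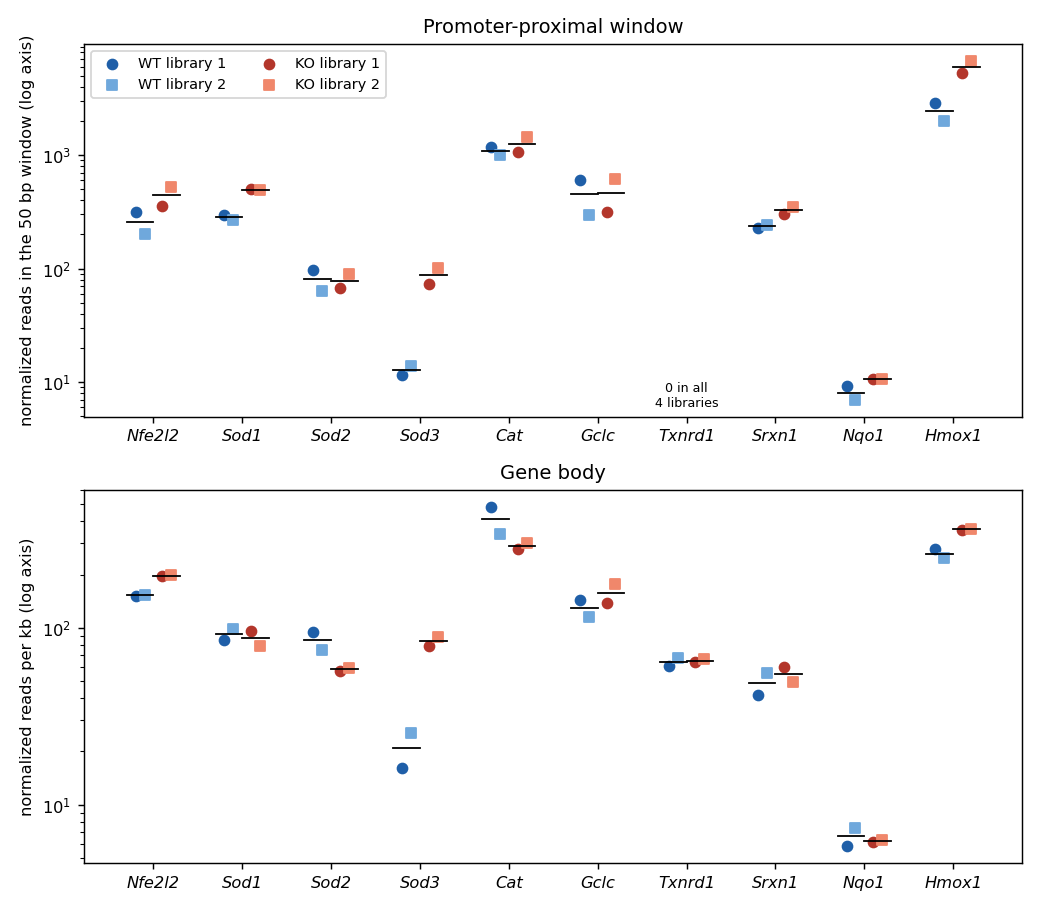
Normalized reads of the 10 genes in the promoter-proximal window (top) and gene body density in normalized reads per kb (bottom), both on log axes, with 1 point per library and a black line at each group mean. Nfe2l2, Hmox1 and Sod3 separate by genotype in both regions, and Txnrd1 has 0 reads in the promoter-proximal window of all 4 libraries.

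**Figure D2:**
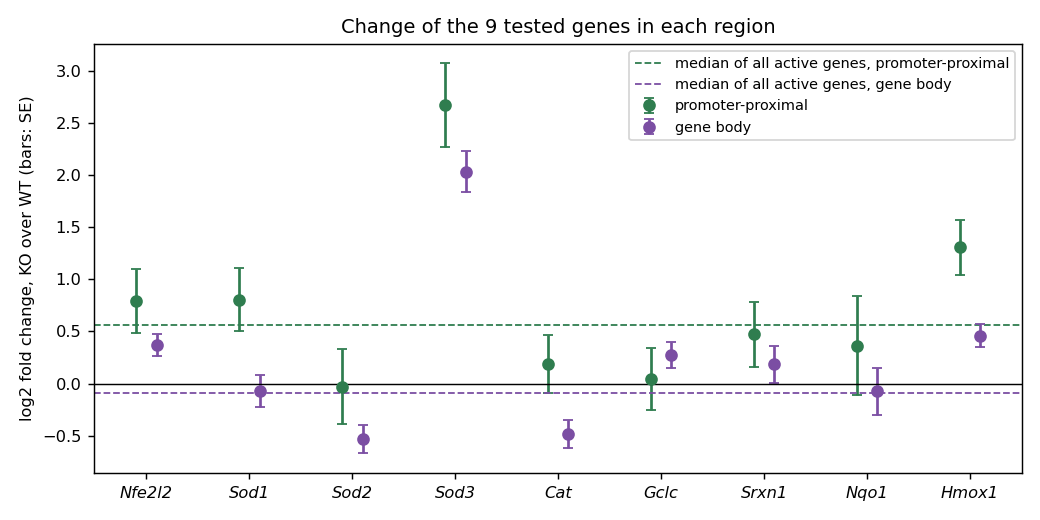
Log2 fold change of KO over WT with its SE for the 9 tested genes, in the promoter-proximal window (green) and the gene body (purple), with dashed lines at the medians of all active genes (0.56 and -0.09). Sod3 and Hmox1 lie farthest above the promoter-proximal line, and Sod2 and Cat lie below the line of each region.

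Compared per length, the gene bodies of the set spanned a wide range in WT liver. Catalase was the most transcribed, at 411 ± 98.9 normalized reads per kb (mean ± SD, n = 2), followed by Hmox1 at 263 ± 21.7, Nfe2l2 at 153 ± 0.622 and Gclc at 129 ± 20.5. Sod1 (91.9 ± 9.22) and Sod2 (84.7 ± 13.8) came next, and this was the only pair of neighbours whose WT ranges overlapped. Txnrd1 followed at 64.1 ± 4.43. Its place rests on a body of 62774 bp from its first start, and its downstream starts and the overlapping Eid3 are given below. Srxn1 came after it at 48.5 with its WT libraries at 41.4 and 55.6, then Sod3 at 20.8 ± 6.71 and Nqo1 at 6.60 ± 1.09. By this WT density catalase lay at the 98.6th percentile of active genes and Nqo1 at the 6.85th. In KO livers Hmox1, at 361 ± 2.06 normalized reads per kb, stood above catalase at 290 ± 14.6, and Sod3, at 83.7 with its libraries at 79.1 and 88.3, stood above Sod2 at 58.1 ± 1.55.

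Nfe2l2 (chr2:75675513-75704663, minus strand) encodes the transcription factor for which the set is named. Its promoter-proximal window held 312 and 200 normalized reads in WT and 356 and 527 in KO, so that the groups did not overlap but the gap between WT replicate 1 and KO replicate 1 was narrow. It rose by 0.79 on the log2 scale (SE 0.31, adjusted p = 0.0382), which is 0.23 above the median active gene. The call was lost when promoter-proximal reads were scaled within their own region (0.22, adjusted p = 0.583) or by factors from the gene bodies (0.87, adjusted p = 0.0511), and by DESeq2 on the recovered reads (adjusted p = 0.058). It was lost too without WT replicate 1 (adjusted p = 0.114), WT replicate 2 (0.525) or KO replicate 2 (0.329). The gene body was steadier, with 4277 and 4302 normalized reads in WT and 5496 and 5572 in KO. There the difference was far larger than the spread between pools, at 0.37 on the log2 scale (SE 0.11, adjusted p = 0.00724), but stayed under the fold threshold.

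Sod1 (chr16:90220762-90226333, plus strand), the cytosolic copper-zinc superoxide dismutase, had 298 and 269 normalized reads in the promoter-proximal window in WT and 500 and 492 in KO. Both groups were tight and well apart. The window rose by 0.81 on the log2 scale (SE 0.30, adjusted p = 0.0331), 0.25 above the median active gene, and scaling within the region left 0.24 (adjusted p = 0.534). Leaving out any 1 library also ended the call, with adjusted p = 0.199 and 0.334 without WT replicate 1 or 2 and 0.0507 and 0.102 without KO replicate 1 or 2. Its gene body did not follow: 391 and 451 normalized reads in WT and 440 and 363 in KO overlapped (log2 fold change -0.07, SE 0.15, adjusted p = 0.740).

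Sod2 (chr17:13007839-13018119, plus strand), the mitochondrial manganese enzyme, had 97.5 and 64 normalized reads in the promoter-proximal window in WT and 66.8 and 89.6 in KO. The groups overlapped fully, with a log2 fold change of -0.03 (SE 0.36, adjusted p = 0.956), which is 0.59 below the median active gene. Both KO libraries were lower in the gene body, at 529 and 550 normalized reads against 877 and 696 in WT. The difference was -0.53 on the log2 scale (SE 0.14, adjusted p = 0.00328), short of the fold threshold. Without 1 library it was -0.37 (WT replicate 1), -0.70 (WT replicate 2), -0.51 (KO replicate 1) or -0.56 (KO replicate 2). Only -0.70 went beyond the threshold. Scaling within the region gave -0.45 (adjusted p = 0.0331).

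Catalase (chr2:103453904-103485153, minus strand) showed the same arrangement at a higher level. Its promoter-proximal window had 1183 and 1005 normalized reads in WT and 1069 and 1442 in KO, which overlap (log2 fold change 0.19, SE 0.28, adjusted p = 0.601), and scaling within the region turned the sign (-0.38, adjusted p = 0.251). The gene body had 14556 and 10325 normalized reads in WT and 8457 and 9079 in KO. Both KO libraries were thus below both WT libraries, which themselves stood well apart. The difference was -0.48 on the log2 scale (SE 0.13, adjusted p = 0.00494), under the fold threshold. Without 1 library it was -0.24 (WT replicate 1), -0.73 (WT replicate 2), -0.43 (KO replicate 1) or -0.54 (KO replicate 2). Only -0.73 went beyond the fold threshold. Scaling within the region gave -0.40 (adjusted p = 0.0821).

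Sod3 (chr5:52363804-52369738, plus strand) encodes the extracellular superoxide dismutase, which is secreted and binds to the cell surface and matrix. It was already known as one of the larger promoter-proximal differences of these libraries when the set was drawn up, so its values are given as a description with no test. The promoter-proximal window had 11.5 and 14 normalized reads in WT and 73.2 and 102 in KO, a ratio of means of 6.87 and a log2 fold change of 2.67 (SE 0.40). The gene body had 79.2 and 126 normalized reads in WT and 390 and 436 in KO, a ratio of 4.03 and a log2 fold change of 2.03 (SE 0.20). In both regions the groups were far apart, and relative to the median active gene the 2 regions differed between genotypes by nearly the same amount, 2.11 and 2.13 on the log2 scale. Over all alternative settings the log2 fold change ran from 2.09 to 2.91 in the window and from 1.70 to 2.37 in the gene body.

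Marker genes of stellate and endothelial cells were also higher in the KO libraries, and their part in the Sod3 values was not tested. Erythroid markers were lower, with summed gene body reads of 895 and 1126 in WT and 402 and 334 in KO. All 5 tested erythroid markers were called down there. Of the 2 tested cholangiocyte markers, Sox9 fell in both regions and Krt19 rose in the window (log2 fold change 1.33, adjusted p = 0.000739). Of 7 stellate cell markers, 6 rose in the promoter-proximal window and 7 in the gene body. Their summed normalized reads were 656 and 744 in WT and 1905 and 2369 in KO in the window, and 8948 and 10239 against 18895 and 17498 in the gene body. All 7 endothelial markers rose in the window and 6 of 7 in the gene body, with window sums of 778 and 815 in WT and 1798 and 2226 in KO. No defining stellate or endothelial marker was at 0 in the WT libraries. The active genes whose 4 promoter-proximal values, centred on the log2 scale, lay nearest to those of Sod3 were Mid1 (Euclidean distance 0.148), Pdgfrb (0.201) and Fbxo27 (0.202). Pdgfrb, the platelet-derived growth factor receptor beta and 1 of the stellate markers, had 25.2 and 30.0 normalized reads in WT and 137 and 182 in KO. Mid1 had 11.5 and 12 in WT and 66.8 and 94.1 in KO, whereas Fbxo27 was at 0 in both WT libraries and had 4.24 and 6.07 in KO.

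**Figure D3:**
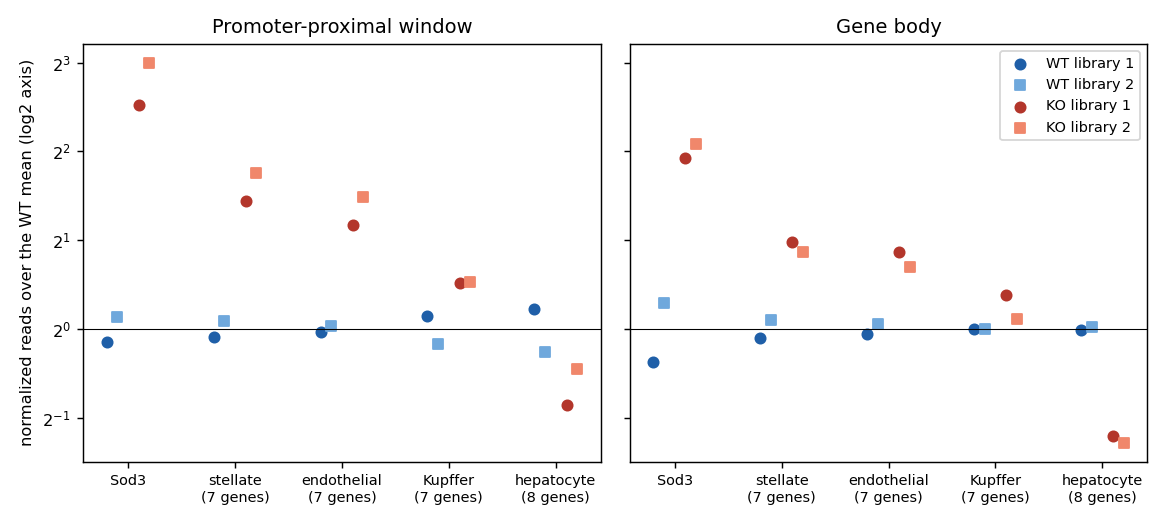
Normalized reads of Sod3 and the summed normalized reads of 4 marker lists in each library, divided by the mean of the WT libraries, on a log2 axis for the promoter-proximal window (left) and the gene body (right). Sod3, the stellate markers and the endothelial markers are higher in both KO libraries in both regions, and the hepatocyte markers are lower.

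Gclc (chr9:77754535-77794489, plus strand) encodes the catalytic subunit of glutamate-cysteine ligase, the rate-limiting enzyme of glutathione synthesis. Its promoter-proximal window varied within both genotypes, with 608 and 298 normalized reads in WT and 316 and 612 in KO, and the ranges coincided almost fully. The log2 fold change was 0.05 (SE 0.30, adjusted p = 0.911), and scaling within the region turned it to -0.52 (adjusted p = 0.207). The gene body had 5600 and 4471 normalized reads in WT and 5343 and 6866 in KO, an overlap with a log2 fold change of 0.28 (SE 0.13, adjusted p = 0.0925).

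Txnrd1 (chr10:82833951-82897724, plus strand), the cytosolic thioredoxin reductase, was transcribed along its body but had 0 reads in the promoter-proximal window of each of the 4 libraries, where a count of 0 allows up to 3.00 to 4.55 normalized reads. It therefore did not meet the definition of an active gene. Its gene body had 3830 and 4223 normalized reads in WT and 4026 and 4157 in KO, and the groups overlapped. Without the filter on activity the log2 fold change was 0.02 (adjusted p = 0.925). The deposited values belong to the transcript with the first start, whose gene body length of 62774 bp is the transcript length of 63774 bp less 1000 bp. GENCODE lists 3 other transcript starts 25228, 25256 and 26350 bp downstream, beyond the 500 bp searched for the window. The window with the antioxidant response element core shown above lies at one of these downstream starts. Eid3, on the same strand, overlaps the gene, and reads of the 2 cannot be told apart there.

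Srxn1 (chr2:152105524-152111376, plus strand) encodes sulfiredoxin, which restores overoxidized peroxiredoxins. Its promoter-proximal window, next to the pair of AP-1 type sites, had 226 and 244 normalized reads in WT and 304 and 349 in KO. The groups did not overlap, but the difference of 0.47 on the log2 scale (SE 0.31) did not pass the test (adjusted p = 0.223), and scaling within the region gave -0.10 (adjusted p = 0.831). The gene body had 192 and 257 normalized reads in WT and 279 and 228 in KO, with overlap (log2 fold change 0.18, SE 0.18, adjusted p = 0.452).

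Nqo1 (chr8:107388225-107403205, minus strand), the quinone reductase often used as a readout of NRF2 activity, was hardly transcribed in these livers. The promoter-proximal window held 8, 7, 10 and 7 reads in the WT and KO libraries, or 9.18 and 7 normalized reads in WT and 10.6 in both KO libraries. These lie only a few reads apart, and the log2 fold change of 0.36 (SE 0.48) had an adjusted p of 0.550 and turned to -0.15 with scaling within the region. The gene body had 81.5 and 103 normalized reads in WT and 85.9 and 88.1 in KO, with the KO values inside the WT range (log2 fold change -0.07, SE 0.23, adjusted p = 0.823). At this depth no difference was detectable for Nqo1 in either region.

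Hmox1 (chr8:75093618-75100593, plus strand), the inducible heme oxygenase, held the most promoter-proximal polymerase of the set and rose the most apart from Sod3. The window had 2884 and 2004 normalized reads in WT and 5268 and 6741 in KO, and both KO libraries lay well above both WT libraries. The log2 fold change was 1.31 (SE 0.27, adjusted p = 3.99e-05), which is 0.75 above the median active gene. It remained a call with scaling within the region (0.74, adjusted p = 0.0491), but was lost without WT replicate 2 (1.05, adjusted p = 0.106) and without KO replicate 2 (1.13, adjusted p = 0.0942). Gene body reads were again higher in both KO libraries, with 2149 and 2167 normalized reads against 1664 and 1480 in WT. That difference of 0.46 on the log2 scale (SE 0.11, adjusted p = 0.00212) was larger than the spread between pools and under the fold threshold. Of 7 markers of Kupffer cells, the liver macrophages that also take up red cells and degrade heme, 1 (Timd4) rose in the window and 0 in the gene body by limma, edgeR or DESeq2. Limma called 25.8% and 10.4% of active genes up in these regions. Without the fold threshold, 3 of the 7 passed an adjusted p under 0.05 in the gene body, all higher in KO (4 at an unadjusted p under 0.05). Of 12705 active genes, 2161 were higher at that adjusted p. There 5 of 7 had both KO libraries above both WT libraries, beside 27.6% of active genes. The median log2 fold change of the 7 was 0.64 in the window and 0.27 in the gene body, beside 0.56 and -0.09 for all active genes. The summed normalized reads of the 7 markers in the window were 756 and 608 in WT and 978 and 981 in KO. Those in the gene body were 19685 and 19777 in WT and 25607 and 21297 in KO. The part of these markers in the Hmox1 values was not tested.

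The pausing index divides the read density of the window by that of the gene body, and it and is given per library with no test. Both KO libraries were above both WT libraries for 6 of the 9 active genes (Sod1, Sod2, Sod3, Cat, Nqo1 and Hmox1), beside 62.6% of active genes, and below for none, beside 3.1%. Hmox1 had the largest index of the set, 207 and 162 in WT and 293 and 372 in KO. Sod1 had 69.9 and 54.7 in WT and 104 and 124 in KO, and for catalase the index was 49.2 and 58.9 in WT and 76.5 and 96.1 in KO. For catalase the larger ratio went with a lower gene body, and for Hmox1 with a higher window. Nfe2l2, Gclc and Srxn1 overlapped between genotypes, Gclc having 84.6 and 51.9 in WT and 46.1 and 69.4 in KO. The median over all active genes was 49.5 and 44.4 in WT and 61.1 and 85.2 in KO, so the index moved in the same direction across the table.

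**Figure D4:**
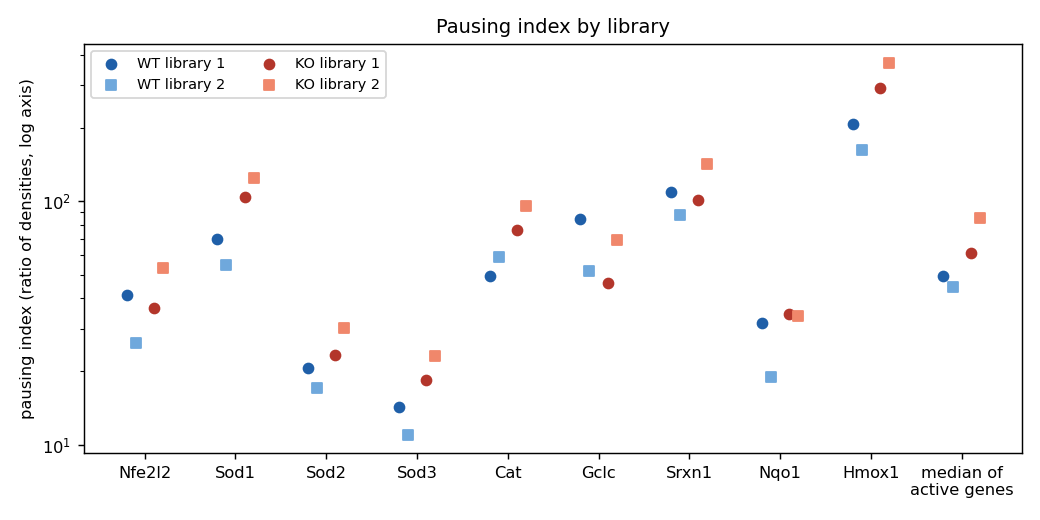
Pausing index (density in the window over density in the gene body) of the 9 active genes and its median over all active genes, on a log axis with 1 point per library. The KO libraries lie above the WT libraries for 6 of the 9 genes and for the median of all active genes.

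The wider pathway was described with 53 other genes, of which 51 were active. In the promoter-proximal window 14 of the 51 rose and 0 fell, beside 25.8% and 2.2% of all active genes, so the share that rose was close to that of the whole table. The median change was 0.56, equal to that of all active genes. edgeR, DESeq2 and an unadjusted p under 0.05 also gave 0 falls. With scaling within the region 5 of the 51 genes were called up, beside 634 of the 12705 active genes. Without WT replicate 1, WT replicate 2 or KO replicate 2 fewer of the 51 were called up, and so were fewer of all active genes. Among the 8 NRF2 regulators, Keap1, which holds NRF2 back, Cul3, the scaffold of the ligase that KEAP1 works with, and Maff, a small MAF partner, rose. Keap1 had only 19.5 and 20 normalized reads in WT and 37.1 and 53.1 in KO (log2 fold change 1.13, adjusted p = 0.0266). Cul3 rose by 0.80 (adjusted p = 0.0482), 0.24 above the median active gene. Neither gene body was called (0.06, adjusted p = 0.741 for Keap1 and -0.10, adjusted p = 0.497 for Cul3). Maff had 35.6 and 27 normalized reads in WT and 92.3 and 143 in KO, well apart (log2 fold change 1.86, SE 0.37, adjusted p = 2.97e-05). None of the 4 tested genes of glutathione synthesis and recycling rose by limma, edgeR or DESeq2, and 1 did at an unadjusted p under 0.05. By group, the calls up were 1 of 11 peroxidases, 2 of 6 genes of the thioredoxin system (Txn1 and Txnip), 2 of 7 genes of NADPH supply (G6pdx and Pgd) and 6 of 15 other NRF2 target and redox genes.

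Besides Maff, the called genes with the largest promoter-proximal changes among those averaging 50 or more normalized reads were all of the last group. Cbr3, a carbonyl reductase, had 172 and 160 normalized reads in WT and 426 and 510 in KO (log2 fold change 1.49, SE 0.31, adjusted p = 7.03e-05). Blvrb, a biliverdin reductase acting downstream of heme oxygenase, had 1052 and 779 in WT and 1859 and 2438 in KO (1.23, SE 0.28, adjusted p = 0.000236). Groups that did not overlap were a condition for naming these genes, as for Ephx1 and Ftl1 below, so their separation is not a result. Ephx1, the microsomal epoxide hydrolase, had 1098 and 898 in WT and 2408 and 2335 in KO (1.25, SE 0.28, adjusted p = 0.000161). Ftl1, the ferritin light chain that stores iron, had 202 and 156 in WT and 368 and 425 in KO (1.15, SE 0.31, adjusted p = 0.00288), and its call was lost with scaling within the region (0.58, adjusted p = 0.0769). Leaving out 1 library ended some of these calls: that of Maff without KO replicate 2 (adjusted p = 0.0639), of Ephx1 without WT replicate 2 (0.093), of Blvrb without WT replicate 2 (0.132) or KO replicate 2 (0.0759), and of Ftl1 without WT replicate 1 (0.0564), WT replicate 2 (0.212) or KO replicate 2 (0.0717).

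Along the gene body, 8 of the 51 genes rose and 5 fell, beside 10.4% and 11.4% of all active genes, so the share that fell was close to that of the whole table. The median change was 0.06, and 8 fell without WT replicate 2 and 3 without KO replicate 1. Maff had 226 and 209 normalized reads in WT and 428 and 484 in KO (log2 fold change 1.06, SE 0.15, adjusted p = 6.54e-06). Ugdh, which makes UDP-glucuronic acid for conjugation, had 309 and 287 in WT and 573 and 639 in KO (1.02, SE 0.14, adjusted p = 3.97e-06). Both genes were about equally changed, with pools of a genotype close together. Ftl1 rose by 0.94 (adjusted p = 2.82e-06), Aox1, an aldehyde oxidase, by 0.90 (adjusted p = 3.95e-06) and Ephx1 by 0.90 (adjusted p = 1.25e-06), so that Maff, Ftl1, Aox1 and Ephx1 were called up in both regions. Gpx8, named after its values were seen because it had the largest gene body change of the list, was called up in both regions too. Its window had 9.18 and 7 normalized reads in WT and 30.8 and 28.8 in KO (log2 fold change 1.77, adjusted p = 0.0012), and its gene body went from low levels of 4.59 and 11 normalized reads in WT to 27.6 and 31.9 in KO.

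The genes whose bodies fell were 1 member of each of 5 groups. Gpx1, the cytosolic glutathione peroxidase, had 120 and 112 normalized reads in WT and 56.2 and 66.8 in KO over a gene body of only 265 bp (log2 fold change -0.91, SE 0.23, adjusted p = 0.00259). Glrx, glutaredoxin, had 449 and 367 in WT and 220 and 216 in KO (-0.90, SE 0.16, adjusted p = 8.19e-05). Txn2, the mitochondrial thioredoxin, had 1767 and 2023 in WT and 1126 and 1119 in KO (-0.75, SE 0.12, adjusted p = 1.38e-05). In these 3 genes the KO libraries agreed closely and lay far below WT. Ptgr1, a prostaglandin reductase, fell by 0.74 (adjusted p = 0.0067) and Nnt, the transhydrogenase that makes mitochondrial NADPH, fell by 0.61 (adjusted p = 8.33e-05). The Gpx1 call was lost without KO replicate 1 (adjusted p = 0.0591) and that of Ptgr1 without KO replicate 1 (0.0639) or KO replicate 2 (0.0618). Nnt went under the fold threshold with scaling within the region (-0.53) and without WT replicate 1 (-0.58) or KO replicate 2 (-0.55).

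**Figure D5:**
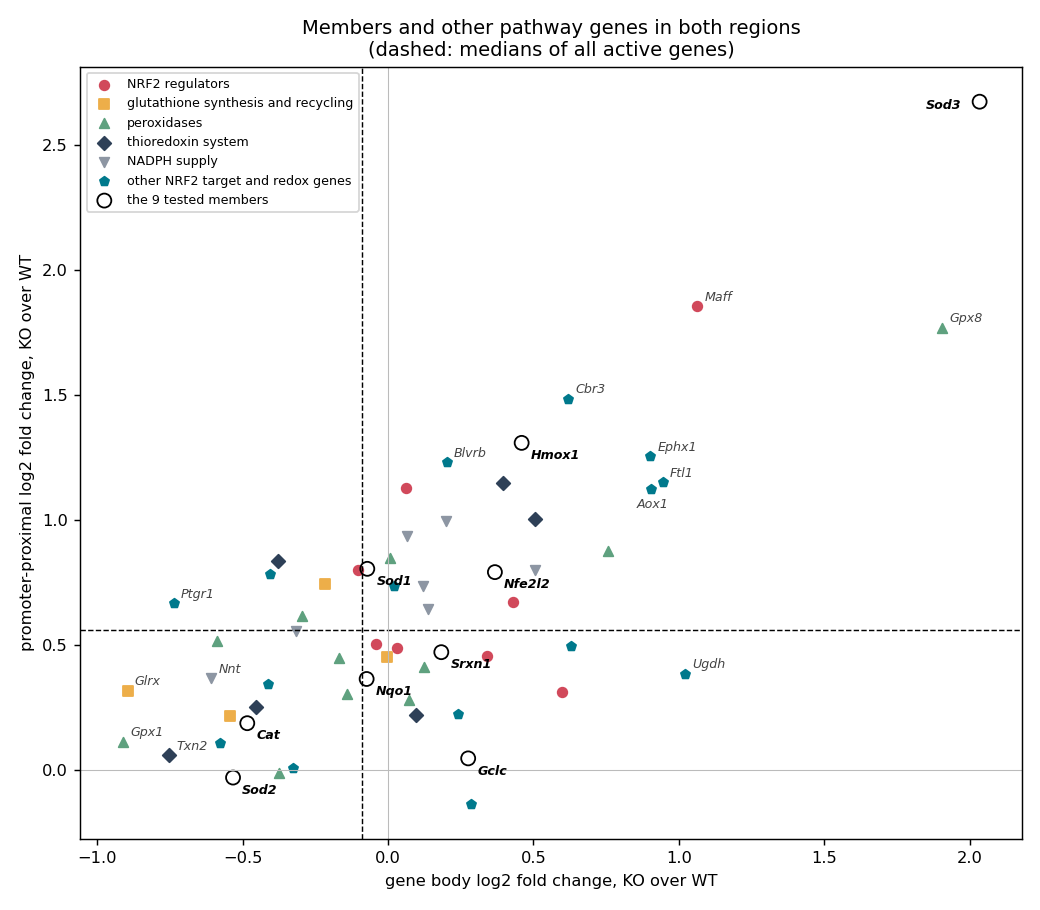
Log2 fold change of KO over WT in the gene body (horizontal) and the promoter-proximal window (vertical) for the 51 active pathway genes, coloured by group, and the 9 tested members (open circles), with dashed lines at the medians of all active genes. Sod3, Maff and Gpx8 lie at the upper right, and Gpx1, Glrx and Txn2 at the lower left, under the promoter-proximal median.

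The deposited list of 2282 enhancers, called on reads pooled from all 4 libraries as intergenic sites transcribed in both directions, holds no value per library, so genotypes could not be compared on it. By nearest gene or a distance of 50 kb, 5 enhancers were listed with 3 genes of the set. Gclc had 3 of them, at listed distances of 2296, 7293 and 32542 bp. That of Sod1 (chr16:90196742-90199838) lay 20904 bp away and that of Sod3 (chr5:52475709-52478146) 111905 bp away. Chromatin contacts collected in the 4DGenome database linked 31 enhancers with the set, at least 1 for each of the 10 genes. These links came from other cells, 0 of them from liver, and 15 of the 31 enhancers lay on a different chromosome from the gene. One of them, chr10:82792153-82807441, was 26510 bp from the first start of Txnrd1 but was listed with Nfyb, at 28012 bp, as its closest gene. An enhancer at chr8:107428586-107431669 lay 25381 bp from the start of Nqo1 and was listed with Nob1, at 3548 bp, and Wwp2, not with Nqo1. The study states that it assigns enhancers to active genes only, and of 1380 closest genes listed 1379 were active here. Txnrd1 was not active here and Nqo1 was, by a cutoff looser than that of the study, though the 4DGenome links name both. Whether the rule left these genes out by distance was not tested.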

How the data were processed

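PRO-seq was done on liver nuclei of 2 WT and 2 Hdac3 KO pools. Per the labels and the study's methods, the authors trimmed reads with cutadapt, aligned them to mm10 with Bowtie2, removed low-quality and rRNA reads and counted polymerases per region with NRSA. The deposited promoter-proximal and gene body values are a signal, reads multiplied by 1 factor per library, except for WT replicate 2, whose deposited values are whole-number counts (factor 1). The deposited densities are a signal per bp. Division by the factors (1.15, 1, 1.06 and 1.52) gave whole reads for 100% of 41640 values in each library, within 0.01. The enhancer list was deposited with coordinates, centers and gene links only.

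The study names a count test (DESeq2). Since normalized values were deposited, the main test was limma 3.58.1 (trend, empirical Bayes) on log2(normalized reads + 1) over 12705 active genes, with no block, in R 4.3.3. edgeR 4.0.16 (quasi-likelihood) and DESeq2 1.42.0 were run on the recovered reads. In the promoter-proximal window limma called 3282 genes up and 280 down, edgeR 3251 and 265, and DESeq2 2799 and 180. In the gene body the counts were 1324 and 1449, 1329 and 1454, and 1219 and 1382. Other alternatives were pseudocounts of 0.1 and 10, other filters, 3 scalings, another choice of transcript, a replicate block, no fold threshold and leaving out each library. With the filter at more than 10 normalized reads per kb, the members called up stayed at 4 in the window and 1 in the gene body. Over the 11176 genes then tested, 2896 were up and 258 down in the window. The pairing of crossed replicate numbers was added after seeing the data.

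The members and all gene lists were chosen with earlier results of these data known. From the pathway list, the genes named with values were the called ones with the largest change, at most 5 per region and direction, with groups that did not overlap and a mean of at least 50 normalized reads. Values of Keap1, Cul3 and Gpx8 were given outside this rule. For Sod3 the 3 nearest active genes were named. Of the 2 tested cholangiocyte genes Krt19 rose in the window and Sox9 fell in both regions. In the window 4 of 8 hepatocyte markers fell. Msrb1, Adgre1 and Epb42 were matched by older symbols. Tests were two-sided. Positions are from RefSeq (GRCm38.p6). Reads have no molecular identifiers, so depth limits cover counting error only.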

Additional observations from a re-analysis of the deposited data

How the results depend on the processing

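With 2 libraries per group, the promoter-proximal calls depended on the filter on activity, on the scaling and on single libraries. Of the members, 4 were called up in the window, and scaling within the region by median of ratios or TMM gave 2, scaling from gene bodies 3, no filter on activity 0 (0 in the whole table, with 3790 up and 398 down at an unadjusted p under 0.05 and past the fold threshold) and leaving out 1 library 1 to 3. For the pathway list the 14 became 5 with both scalings, 0 with no filter and 2 to 17 without 1 library. In the gene body, 1 member was called up and 0 down. With no filter this was 0 up, with no fold threshold 3 up and 2 down, and without 1 library 0 to 2 were down. For the pathway list the 8 up and 5 down became 2 and 1 with no filter, 14 and 15 with no fold threshold, and 6 to 10 and 3 to 8 without 1 library. In all active genes the gene body calls were 406 up and 591 down with no filter and 2161 and 2807 with no fold threshold. A library left alone in its group was assumed to vary like the other group. Calls up in the window over all active genes also became fewer without WT replicate 1, WT replicate 2 or KO replicate 2. The cause of these differences was not tested, except that dropping the fold threshold adds calls by construction. Promoter-proximal log2 fold changes that turned sign, all without a call, were those of Cat (-0.38 with both scalings and -0.028 to 0.40 without 1 library), Gclc (-0.52 with both, -0.47 to 0.56), Nqo1 (-0.15 with both), Srxn1 (-0.097 and -0.098) and Sod2 (0.051 with scaling from gene bodies, -0.33 to 0.27 without 1 library). Gene body changes that did so were those of Nqo1 (0.0068 with median of ratios, 0.0049 with TMM, -0.24 to 0.094 without 1 library), Sod1 (0.0097, 0.0078, -0.21 to 0.068) and Srxn1 (-0.028 to 0.39 without 1 library). In the gene body, median of ratios within the region and from gene bodies are the same scaling. Its values enter the counts that follow under 2 names. Of 556 values of single genes under the alternatives, 472 kept their direction and side of the threshold, 49 lost a call, 6 gained one and 24 turned sign, and 5 values of Sod3, which has no test, moved beyond the spread of WT. Libraries of 1 number did not vary together (r = -0.11 in the window and 0.02 in the gene body across genes), so they share only a number. A replicate block gave 2 members and 11 pathway genes called up in the window (1772 up and 177 down over all active genes) and left the gene body counts of members and pathway genes as they were. The crossed pairing as a block, added after seeing the data, called 4 members and 21 pathway genes up in the window, and 4861 genes up and 399 down in all.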
